A study of Mus musculus with 3 samples.

Results

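The genes described here are 10 genes of the interleukin 1 system, out of 54532 genes in the table: the ligands Il1a, Il1b and Il18, the antagonist Il1rn, the receptor chains Il1r1, Il1r2 and Il1rap, the soluble inhibitor Il18bp, and the inflammasome genes Nlrp3 and Casp1. They were selected by gene symbol, and the group was chosen on the measured level of Il1rn, which was lower in both TSH libraries than with RANKL alone. That difference is therefore given as a description. RNA was measured in RAW264.7, a wild-type mouse macrophage line that becomes osteoclasts, the cells that resorb bone, when given the cytokine RANKL. All cells had received RANKL for 3 days, and were then taken at 0 h without thyroid stimulating hormone (TSH), or after 2 h or 24 h in TSH at 10 mU/mL. There were 3 libraries, 1 of each kind, and all came from a single cell line. None without TSH was taken at 2 h or 24 h, so TSH and time cannot be told apart in comparisons with RANKL alone. The deposited columns were matched to samples by name, R0 as RANKL alone and T1 and T2 as the TSH libraries. The direction of every comparison with RANKL alone rests on that match. The names T1 and T2 do not say which is 2 h and which is 24 h, so the libraries keep those names here.

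Interleukin 1 alpha and beta are inflammatory cytokines that bind the receptor IL1R1, which signals only after the accessory protein IL1RAP joins it. IL1RN, the receptor antagonist, occupies IL1R1 without recruiting IL1RAP, and IL1R2 is a decoy receptor. Pro-interleukin 1 beta and pro-interleukin 18 are cut by caspase 1, which is activated in the NLRP3 inflammasome through the adaptor ASC, the product of Pycard, and IL18BP captures free interleukin 18. In bone, interleukin 1 is known to promote osteoclast formation and resorption, and the antagonist counters it. RAW264.7 cells are known to lack ASC.

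Il1rn is shown first by its promoters, because its 5535 bases of annotated exon combine transcripts from separate starts. The gene is known to give secreted and intracellular forms from different starts. The deposited value is 1 number per gene and does not separate them. RefSeq places 3 starts in Il1rn, and the windows of the first and the second are shown, since that of the third overlaps the second. These 250 bases, with those before the agonist genes Il1a and Il1b for comparison, are given from RefSeq on build GRCm38.p6, with matches to the AP-1 motif TGANTCA or the TATA box TATAAA in capitals.
Il1rn first start (chr2:24336610-24336859, plus strand): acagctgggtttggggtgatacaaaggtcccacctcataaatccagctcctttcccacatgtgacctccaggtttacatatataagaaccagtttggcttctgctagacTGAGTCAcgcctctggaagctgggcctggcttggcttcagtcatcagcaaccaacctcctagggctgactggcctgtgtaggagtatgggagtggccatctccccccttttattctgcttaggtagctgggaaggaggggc
Il1rn second start (chr2:24345041-24345290, plus strand): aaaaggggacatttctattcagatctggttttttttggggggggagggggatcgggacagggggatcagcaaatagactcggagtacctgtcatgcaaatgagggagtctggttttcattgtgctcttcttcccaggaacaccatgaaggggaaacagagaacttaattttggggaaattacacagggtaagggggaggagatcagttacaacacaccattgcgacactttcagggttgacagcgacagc
Il1a (chr2:129309973-129310222, minus strand): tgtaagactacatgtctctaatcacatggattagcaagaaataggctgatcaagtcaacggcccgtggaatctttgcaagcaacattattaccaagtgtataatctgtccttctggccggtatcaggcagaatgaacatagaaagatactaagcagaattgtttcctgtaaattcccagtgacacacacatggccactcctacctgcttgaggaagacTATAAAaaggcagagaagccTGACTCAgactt
Il1b (chr2:129371140-129371389, minus strand): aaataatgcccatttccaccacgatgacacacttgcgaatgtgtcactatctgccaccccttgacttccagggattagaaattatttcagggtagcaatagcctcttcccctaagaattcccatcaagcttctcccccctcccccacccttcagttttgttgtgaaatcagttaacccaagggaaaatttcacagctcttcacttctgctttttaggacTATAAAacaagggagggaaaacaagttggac
AP-1 is the family of FOS and JUN dimers, which act in osteoclast formation. Both strands were searched. The AP-1 letters occurred once before the first Il1rn start and once before Il1a, and in 6.75% of all 32817 promoter windows of this length. TATAAA stood before Il1a and Il1b but in none of the 3 Il1rn windows, and was in 12.4% of windows. Only these exact letters were searched, and the first Il1rn window holds the similar TATATAA, which they do not match. No match was found in these 4 windows for the kappa B consensus, the C/EBP motif TTGCNNAA or the PU.1 motif GAGGAAGT, which were in 7.25%, 9.57% and 2.44% of windows. A match is a description of the letters and shows no binding.

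Levels are in FPKM, reads scaled to the length of a gene and to the depth of its library, and the reads behind each level were recovered. The reads summed to between 16156926 and 17390744 per library. Intervals are 95% counting intervals from the reads. They hold counting error and nothing else: reads copied by PCR are not separate molecules, and with no replicate library no p-value is given. A gene is called lower or higher beyond counting error where the interval of its ratio leaves out 1. That rule was applied above a filter on the mean level, 1 FPKM or more, which 11069 genes passed, of which 5 are members: Il1rn, Nlrp3, Casp1, Il18 and Il1rap. The labelled cell type was checked on its markers: in the RANKL-only library Ctsk, a bone matrix protease gene, stood at 1337 FPKM, and the macrophage markers summed to 1233 FPKM. Cd68, Csf1r and Lyz2 made up most of that sum, at 578, 388 and 194 FPKM. Other listed markers were low there: the osteoclast marker Calcr at 0.697 FPKM, and the macrophage markers Adgre1 at 1.82, Itgam at 1.05, Fcgr1 at 0.239 and Mertk at 0. Marker genes of neutrophils summed to between 0 and 0.207 FPKM, and those of osteoblasts and fibroblasts to between 0.259 and 0.380. Those of lymphocytes summed to between 1.18 and 1.501, and those of dendritic cells to between 1.70 and 2.02. Ly6g, Bglap, Cd3e and Flt3 had 0 reads in each library. Other listed markers were measured: the lymphocyte marker Lck had 59, 51 and 67 reads (RANKL alone, T1, T2). The dendritic cell marker Itgax had 102, 77 and 98, and both genes passed the filter. Zbtb46, of the dendritic cell list, had 70, 75 and 61 reads, and the osteoblast marker Runx2 had 22, 32 and 15.

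Il1rn was the most abundant of the 10 members per length in the library of RANKL alone. Its level was 13.8 FPKM in the RANKL-only library, 9.52 in T1 and 10.3 in T2, from 1234, 884 and 995 reads. The library of RANKL alone was thus the highest, and the TSH libraries lay close to each other. The ratio to RANKL alone was 0.689 (0.631 to 0.752) in T1 and 0.742 (0.682 to 0.807) in T2, and both comparisons share the library of RANKL alone. On the scale of log2(FPKM + 1) the differences were -0.49 and -0.40. In T2 against T1, which does not use the library of RANKL alone, the ratio was 1.08 (0.983 to 1.18), so these libraries did not differ in Il1rn beyond counting error. When the libraries were rescaled to the same total, Il1rn was higher beyond counting error in T2 than in T1, at a log2 difference of 0.13 in place of 0.10.

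Il1rn was lower beyond counting error and was the single member of the 5 past the filter that was, in T1 as in T2. In the background 12.2% of tested genes were lower and 10.8% higher beyond counting error in T1, and 13.2% and 10.2% in T2. Among the 6248 genes of like coverage, with 1000 to 10000 reads over the libraries, 12.9% were lower in T1 and 13.3% in T2. Since the group was chosen on this contrast, nothing is read from the count. As a description of its place, 7 of 7275 genes with at least 1000 reads had a log2 difference at or below that of Il1rn in T1, 15 did in T2, and 5 did in both, Il1rn included each time. Il1rn did not pass a 2-fold size rule, an absolute difference in log2(FPKM + 1) of at least 1, and neither did any other member past the filter. Il18bp, under the filter, had FPKM ratios of 2.16 in T1 and 2.07 in T2, but differences of only 0.36 and 0.34 on that scale. Of all tested genes 1.04% passed that rule in T1, 0.768% in T2 and 0.831% in T2 against T1.

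**Figure D1:**
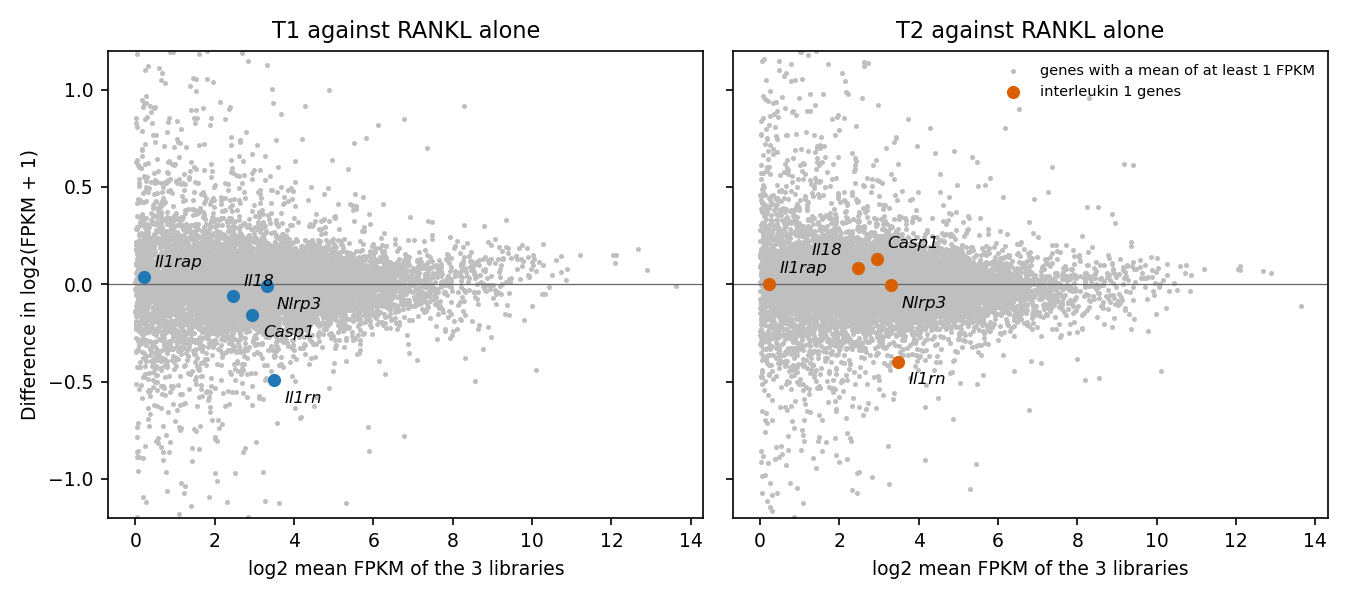
Each gray point is a gene past the filter of 1 FPKM, placed by its log2 mean FPKM over the 3 libraries and by its difference in log2(FPKM + 1) from RANKL alone, for T1 on the left and T2 on the right, and the 5 interleukin 1 genes past that limit are coloured. Il1rn lies at -0.49 and -0.40, while the other members lie between -0.16 and 0.13; 79 genes in T1 and 50 in T2 fall outside the axis at an absolute difference over 1.2.

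Most osteoclast markers were also lower in the TSH libraries. Of 9 osteoclast markers past the filter, 6 were lower and 1 higher beyond counting error in T1, and 9 were lower in T2. Of all tested genes 12.2% were lower in T1 and 13.2% in T2. Genes with more reads are called at smaller differences, and these markers held from 1999 (Oscar) to 90218 (Acp5) reads over the libraries. No share was computed for genes with more than 10000 reads, so the counts have no background of like depth. The 10 listed markers summed to 3097 FPKM in the RANKL-only library, 2572 (T1) and 2496 (T2). The 8 macrophage markers summed to 1233, 1219 and 1220 FPKM, but went both ways: of 6 past the filter, 3 were higher and 2 lower beyond counting error in either TSH library. Adgre1, which encodes F4/80, had ratios of 1.41 (1.08 to 1.85) and 1.34 (1.02 to 1.75), and Lyz2, the lysozyme gene, 1.08 (1.03 to 1.12) and 1.15 (1.103 to 1.198). Itgam was higher in T1, Cd14 was higher in T2, and Csf1r and Cd68 were lower in both. Csf1r, Cd68 and Lyz2 also had more than 10000 reads over the libraries. The part of the osteoclast and macrophage markers in the Il1rn result was not tested, and in bulk RNA fewer cells of a type and less RNA per cell cannot be told apart. Among the 5 genes whose pair of log2 differences lay nearest to that of Il1rn, by Euclidean distance over those 2 differences among 9222 named genes with at least 100 reads, were Coa6, Bbs5, Trp53inp1 and Ctsk. Ctsk was at 1337, 983 and 980 FPKM, with ratios of 0.736 (0.724 to 0.748) and 0.733 (0.721 to 0.745). Coa6, an assembly factor of cytochrome c oxidase, was at 11.9, 8.14 and 8.63 FPKM. A pattern over 3 libraries is shared by many genes, and the distances are a description.

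The agonist genes were near the limit of detection. Il1b gave 3 reads in each library, at 0.0975 FPKM in the RANKL-only library, 0.0938 (T1) and 0.0898 (T2), which is the level of the 3-read floor itself. Il1a gave 2, 2 and 1 reads, or 0.0628, 0.0604 and 0.0289 FPKM, and 222 of its exon bases lie opposite the noncoding gene Gm14023, which had 5, 6 and 1 reads. No difference between libraries was detectable for either at this depth. Per length, Il1rn stood 142 times above Il1b with RANKL alone (48.4 to 688), 102 times in T1 (34.6 to 493) and 114 times in T2 (39.0 to 555). The intervals overlap widely because the Il1b reads are so few. The deposited lengths are unions of exons, 5535 bases for Il1rn against 2554 for its longest annotated transcript, and 1907 against 1356 for Il1b, so these ratios depend on the length used.

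Il18, the other cytokine cut by caspase 1, was well above them. It stood at 5.47 FPKM in the RANKL-only library, 5.21 (T1) and 5.87 (T2), from 91, 90 and 106 reads. The ratio was 0.951 (0.703 to 1.29) in T1 and 1.07 (0.803 to 1.44) in T2. Each interval holds 1, so no difference was detectable at this depth.

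Il18bp, the gene of the interleukin 18 inhibitor, went the other way from Il1rn. It stood at 0.328 FPKM in the RANKL-only library, 0.709 (T1) and 0.679 (T2), from 16, 36 and 36 reads. The TSH libraries were both higher, and they lay close to each other, at a ratio of 0.957 (0.586 to 1.56) in T2 against T1. The ratio to RANKL alone was 2.16 (1.17 to 4.18) in T1 and 2.07 (1.12 to 3.997) in T2. Il18bp is under the filter of 1 FPKM. Of 1893 genes with 50 to 200 reads over the libraries, 6.18% were higher beyond counting error in T1 and 6.34% in T2. The gene shares 80 of its 3026 exon bases with Numa1, a mitotic spindle gene on the other strand at 30.5, 31.5 and 32.1 FPKM. At those levels even coverage would put 39.3, 42.2 and 45.1 Numa1 reads in the shared bases, more than all reads given to Il18bp, and the sources used here do not say if reads were counted by strand. The Il18bp values are therefore uncertain, and the part of Numa1 reads in them was not tested.

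**Figure D2:**
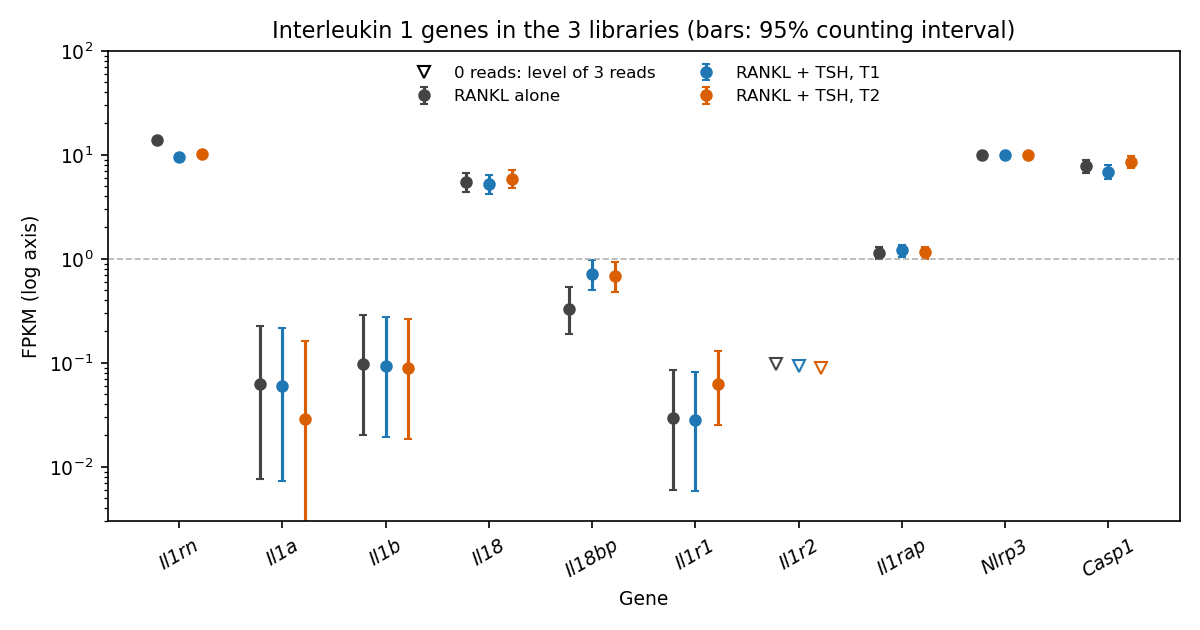
FPKM on a log axis for the 10 interleukin 1 genes in the library of RANKL alone (dark gray), T1 (blue) and T2 (orange), with 95% counting intervals as bars, of which that of Il1a in T2 runs below the axis; triangles mark 0 reads, drawn at the level of 3 reads, and the dashed line is 1 FPKM. Il1rn, Nlrp3, Casp1, Il18 and Il1rap lie above 1 FPKM in each library, and the other 5 below it.

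The receptors of interleukin 1 gave few reads or none. Il1r1, the signalling receptor, gave 3 reads in the RANKL-only library, 3 (T1) and 7 (T2), or 0.0292, 0.0281 and 0.0628 FPKM. The ratio of T2 to RANKL alone was 2.15 (0.490 to 12.9), so no difference was detectable. Il1r2, the decoy, had 0 reads in each library, which allows up to 0.0975, 0.0938 and 0.0897 FPKM. Both lie in the receptor cluster on chromosome 1 (GRCm38), Il1r2 at 40074079 to 40125231 and Il1r1 at 40225080 to 40317257. Among their neighbours there, Il1rl2 and Il18r1 had 0 reads in each library, Il18rap had 19, 27 and 17, and Il1rl1, the receptor of interleukin 33, had 146, 153 and 136. Il1rl1 was at 1.31, 1.32 and 1.13 FPKM and did not differ beyond counting error. Its ligand gene Il33 had 0 reads in each library.

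Il1rap, which also serves the receptors of interleukin 33 and interleukin 36, was measurable. It stood at 1.15 FPKM in the RANKL-only library, 1.202 (T1) and 1.15 (T2), from 210, 229 and 229 reads. Its ratios were 1.05 (0.866 to 1.27) and 1.004 (0.829 to 1.22), so the libraries did not differ beyond counting error. Its exons overlap 552 bases of Gm20319 on the other strand, which had 1 read in T2 and 0 in the others. On chromosome 2, Il1rn, at 24336853 to 24351494, neighbours the interleukin 36 genes, named Il1f8, Il1f9, Il1f6 and Il1f5 in the table, and Il1f10. Of these 5 genes, 4 had 0 reads in each library and Il1f9 had 0, 2 and 1. Il1a and Il1b lie on the same chromosome at 129299610 to 129309972 and 129364570 to 129371139. Il1rn was therefore the single gene of the interleukin 1 ligand family on chromosome 2 with more than 3 reads in any library.

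Nlrp3 encodes the inflammasome sensor. It was at 9.92 FPKM in the RANKL-only library, 9.85 (T1) and 9.87 (T2), from 649, 670 and 702 reads. The ratios were 0.993 (0.890 to 1.11) and 0.996 (0.893 to 1.11), so the libraries did not differ beyond counting error.

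Casp1 encodes the protease of the inflammasome. It was at 7.75 FPKM in the RANKL-only library, 6.85 (T1) and 8.58 (T2), from 187, 172 and 225 reads. T1 was the lowest and T2 the highest, with RANKL alone between them. Neither TSH library differed from RANKL alone beyond counting error, at ratios of 0.885 (0.715 to 1.09) and 1.11 (0.908 to 1.35). In T2 against T1 the ratio was 1.25 (1.02 to 1.54). Casp1 was the single member of 5 called in that comparison, in which 7.93% of all tested genes were higher and 10.1% lower beyond counting error. The median log2 difference over the 5 members was -0.06 in T1, 0.00 in T2 and 0.10 in T2 against T1, where that over all tested genes was 0.00 in each.

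**Figure D3:**
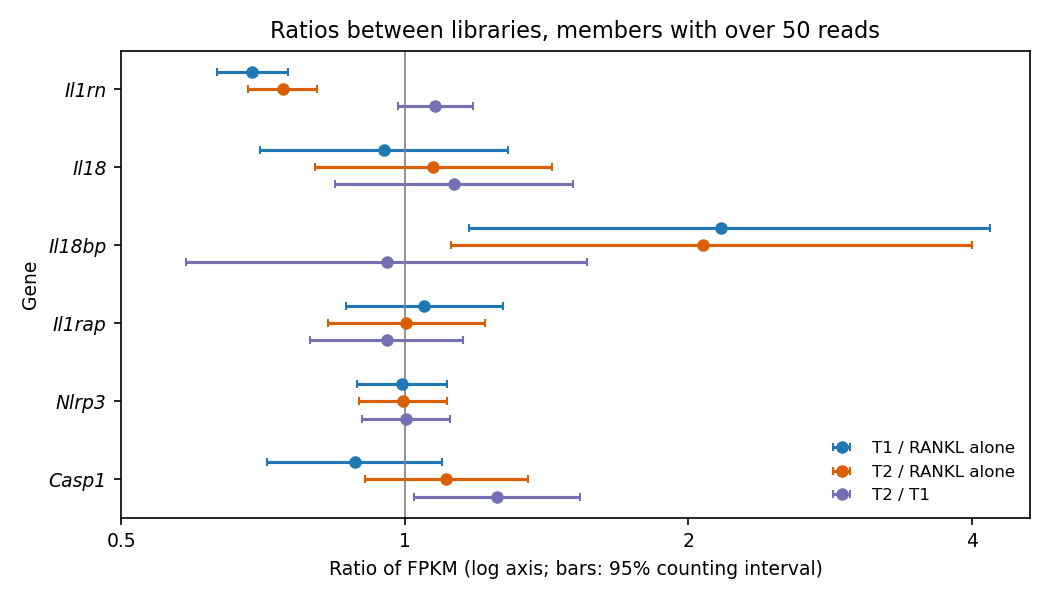
Ratios of FPKM on a log axis, with 95% counting intervals, for the 6 members with over 50 reads: T1 over RANKL alone (blue), T2 over RANKL alone (orange) and T2 over T1 (purple). The intervals leave out 1 for Il1rn on the lower side and Il18bp on the higher side against RANKL alone, and for Casp1 in T2 over T1.

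The other parts of the inflammasome were read from a list of 22 genes, of which 14 passed the filter. Pycard, the gene of ASC, had 6, 5 and 16 reads, or 0.0979, 0.0785 and 0.240 FPKM, far below Nlrp3 and Casp1. From these few reads its ratio was 2.45 (0.912 to 7.66) in T2 against RANKL alone and 3.06 (1.07 to 10.7) in T2 against T1. Gsdmd, the gene of the pore-forming gasdermin D, was at 41.1, 42.2 and 41.3 FPKM and did not differ beyond counting error. In T1, 1 of the 14 was lower and 2 higher beyond counting error, near the background of 12.2% and 10.8% of all tested genes. In T2, 1 was lower and 4 higher, beside a background of 13.2% and 10.2%. Casp4, the inflammatory caspase that senses cytosolic lipopolysaccharide, was at 7.22 FPKM in the RANKL-only library, 5.19 (T1) and 6.86 (T2). Its ratio was 0.719 (0.621 to 0.833) in T1, 0.9502 (0.831 to 1.09) in T2, and 1.32 (1.14 to 1.53) in T2 against T1, so T1 was below both other libraries for Casp4. Aim2, a DNA sensor, was at 14.2, 15.5 and 17.0 FPKM, with a ratio of 1.196 (1.09 to 1.31) in T2. Naip2, a sensor of bacterial proteins, was at 3.25, 3.11 and 4.004 FPKM, with a ratio of 1.23 (1.04 to 1.46) in T2. Txnip, an NLRP3-binding protein gene, was at 19.7, 23.0 and 22.5 FPKM and was higher in both TSH libraries, at 1.17 (1.08 to 1.27) and 1.14 (1.05 to 1.24). The list's median log2 difference was 0.00 in T1 and 0.00 in T2.

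Signalling below the receptor was read from 17 genes, of which 15 passed the filter. In T1, 5 of them were lower and 0 higher beyond counting error, beside 12.2% and 10.8% of all tested genes. In T2, 4 were lower and 0 higher, beside 13.2% and 10.2%. Their median log2 differences were -0.03 and -0.04. Myd88, the adaptor of the receptor, was at 23.3, 23.9 and 23.9 FPKM and did not differ beyond counting error. Tollip, an inhibitor of IRAK1, was at 23.6, 19.5 and 22 FPKM, with ratios of 0.828 (0.775 to 0.884) for T1 and 0.934 (0.876 to 0.995) for T2. Traf6, the ubiquitin ligase that also carries the RANK signal, was at 15.3, 12.8 and 14.2 FPKM, with ratios of 0.837 (0.783 to 0.893) and 0.926 (0.869 to 0.987). Peli1 and Tab3 had ratios of 0.840 (0.7496 to 0.940) and 0.840 (0.724 to 0.975) in T1, and neither was beyond counting error in T2. In T2 against T1, Tollip and Traf6 were higher, at 1.13 (1.06 to 1.21) and 1.11 (1.04 to 1.18), so T1 was the lower of the TSH libraries for both.

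Response genes of NF-kB and interleukin 1 were called in both directions. Of 22 listed genes 15 passed the filter, of which 3 were lower and 1 higher beyond counting error in T1, against 5 and 2 in T2. The background over all tested genes was 12.2% lower and 10.8% higher in T1, and 13.2% and 10.2% in T2. Tnf, the gene of tumour necrosis factor, was at 23.6, 24.8 and 26.5 FPKM, with a ratio of 1.12 (1.01 to 1.25) in T2. Tnfaip3, which encodes the NF-kB inhibitor A20, was at 11.1, 9.25 and 9.48 FPKM, with ratios of 0.833 (0.768 to 0.903) and 0.853 (0.788 to 0.923). Ier3 was at 41.5, 33.8 and 44.5 FPKM, lowest in T1, with ratios of 0.814 (0.732 to 0.906) and 1.07 (0.972 to 1.18). Il10, an anti-inflammatory cytokine gene, was at 2.04, 1.18 and 1.83 FPKM from 43, 26 and 42 reads, with ratios of 0.582 (0.343 to 0.968) and 0.899 (0.573 to 1.41). Ccl2 was at 5.39, 6.29 and 6.82 FPKM and did not differ beyond counting error. Il6, Cxcl1 and Lcn2 had 0 reads in each library. The list's median log2 difference was 0.00 in T1 and -0.04 in T2.

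**Figure D4:**
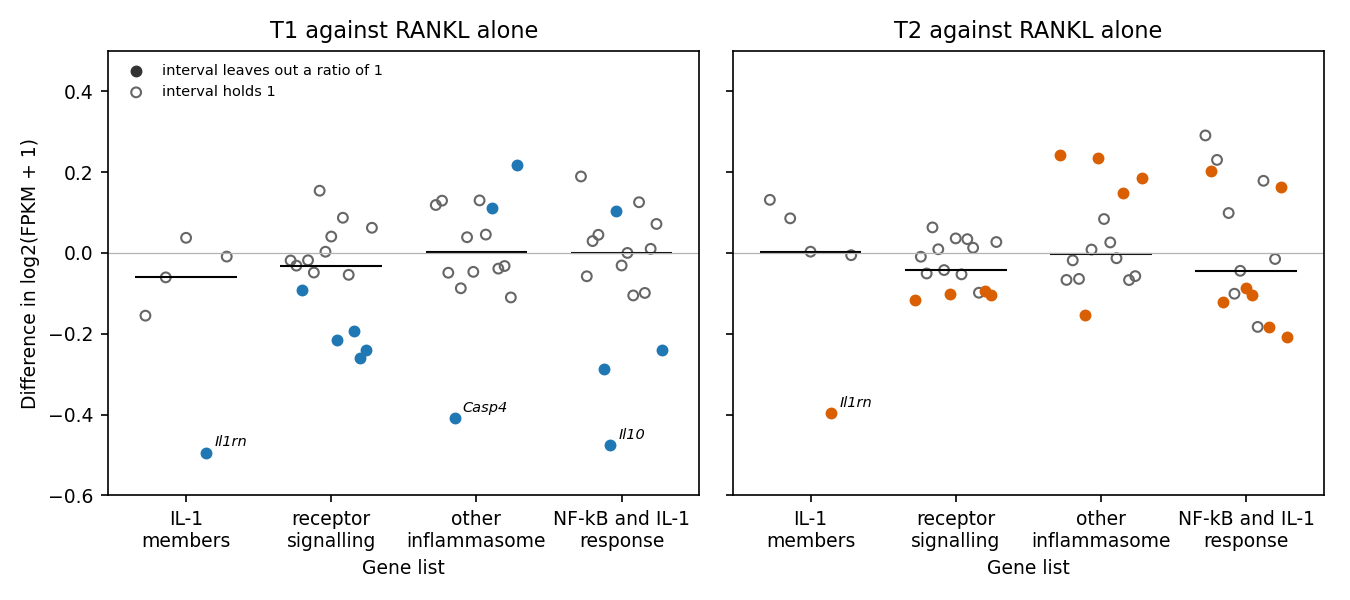
Differences in log2(FPKM + 1) from RANKL alone for those members of 4 gene lists that passed the filter of 1 FPKM, T1 on the left and T2 on the right; filled points have a 95% counting interval that leaves out a ratio of 1, open points do not, and lines are list medians. The medians lie between -0.06 and 0.00, Il1rn is the lowest point in both panels, and Casp4 and Il10 are low in T1.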

How the data were processed

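Total RNA of 3 RAW264.7 libraries was sequenced after SMARTer mRNA library preparation, per the labels' protocols. The authors deposited FPKM values with 1 column per library. The other deposited column used is the gene length in bases. The submitters' processing notes name GRCm38 and mm10 as builds. Neither the aligner nor the counter, strand setting or annotation is named in the sources used here, which bears on genes that overlap others.

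The product of FPKM and length fell on whole multiples of a step fixed for each library, within 0.01 for 100% of values above 0. The reads so recovered summed to 16156926 (RANKL alone), 16809034 (T1) and 17390744 (T2). Differences are of log2(FPKM + 1), which understates changes of low genes. Ratios carry exact conditional Clopper-Pearson intervals, and floors are 3 reads. No test could be run, each group having 1 library. The 134 listed symbols, in 11 lists of which the members are 1, were chosen with earlier results of these data known. Of these symbols 4 were found through RefSeq synonyms. Outside the members, up to 4 genes per list with the largest difference were named where a result turns on them, plus Pycard, Gsdmd, Myd88, Irak3, Tnf and Sigirr, and other genes were named after their values were seen. Of the 5 genes nearest to Il1rn, 1 is not reported here. The 10 members had the same coordinates in GENCODE M21. BLAST+ 2.17.0 found a near-identical copy (95% identity, 100 bases, 50% of the shorter transcript) for 1 member, Il1rap, which is its overlap with Gm20319. The functions were tested on simulated data. Python 3.11.15, numpy 2.4.6, pandas 2.3.3, scipy 1.17.1 and matplotlib 3.10.9 were used.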

Additional observations from a re-analysis of the deposited data

How the results depend on the processing

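No paired analysis was possible because each group has 1 library, and for the same reason no library could be left out. The settings tried were a pseudocount of 0.1 or 5, a filter at 5 FPKM or none at all, rescaling to the same total as in TPM, median-of-ratios scaling and a fold of 1.5. Il1rn was lower under each scaling and pseudocount tried, with log2 differences from -0.53 to -0.37 in T1 and from -0.43 to -0.30 in T2. Of 40 member values recomputed per comparison, 2 in T1, 2 in T2 and 1 in T2 against T1 moved outside the counting interval of the main value. A reversal was counted only for members called beyond counting error, and a pseudocount cannot change a sign. Nothing is therefore read from the 0 reversals found. Without the filter 1 member, Il18bp, was also higher beyond counting error in T1 and 1 in T2. Rescaled to the same total, 2 members were higher in T2 against T1, Il1rn joining Casp1. The number of genes past the 2-fold size rule moved far more. In T1 (115) it was 219 with a pseudocount of 0.1, 17 with 5, 223 without the filter, 25 at 5 FPKM and 290 at 1.5-fold. In T2 (85) it was 197, 8, 208, 13 and 272 in the same order, and in T2 against T1 (92) it was 176, 13, 201, 16 and 251. Scaling moved the median of all genes by under 0.1 in log2. The depth limits Il1a, Il1b, Il1r1 and Il1r2 to counts of 0 to 7 reads.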

Other observations

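Brakes on interleukin 1 and Toll-like receptor signalling were also read, at low levels. Irak3, a pseudokinase that restrains signalling below MYD88, stood at 0.405, 0.178 and 0.404 FPKM (RANKL alone, T1, T2), from 24, 11 and 26 reads, and its ratio was 0.441 (0.195 to 0.935) in T1 and 2.26 (1.08 to 5.07) in T2 against T1. Sigirr, an inhibitory receptor of the same family, had 25, 21 and 24 reads and did not differ beyond counting error. Nos2, the inducible nitric oxide synthase gene, had 24, 45 and 49 reads, and its ratios to RANKL alone were 1.80 (1.08 to 3.09) for T1 and 1.88 (1.13 to 3.20) for T2. Cxcl10, listed with Nos2 among the response genes of NF-kB and interleukin 1, went the other way, with 23, 17 and 10 reads. It was lower beyond counting error in T2 but not in T1. Among genes with 50 to 200 reads over the libraries, 6.18% were higher beyond counting error in T1 and 6.34% in T2. The share that was lower was not computed for such genes. Irak3, Sigirr, Nos2 and Cxcl10 are under the filter of 1 FPKM, and Nos2 and Cxcl10 were named after their values were seen.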
